A study of Mus musculus with 8 samples.

Results

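The genes described here encode complement and acute phase proteins: C3, C4b, Cfb, Serping1, Lcn2, Saa3, Hp, Agt and Serpina3n. They are 9 named members, 8 of which are among the 12528 genes with values, and Serping1, the inhibitor of the C1 proteases, was not analysed here. RNA was measured in mouse embryonic fibroblasts (MEFs) from WT littermates and from littermates lacking Cav1 (Cav1KO), the gene of the caveola coat protein caveolin-1. The study describes the MEFs as immortalized, and poly(A) RNA was taken 24 h after the cells were seeded at low confluence on fibronectin-coated polyacrylamide gels, either stiff or soft. The 4 groups were WT stiff and WT soft, then Cav1KO stiff and Cav1KO soft, each with 2 libraries of 60-base single reads. The labels do not say whether the libraries of a group came from separate cultures or how many lines each genotype comprised, so the p-values measure only the spread between these libraries, and the genotype cannot be told apart from the line that carried it.

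The members were chosen by their names, and the set was drawn up because Agt and Serpina3n were much higher on the soft substrate, most of all in Cav1KO cells. The values of those 2 genes therefore describe the choice and were given no test. The other members were also chosen with earlier results of these libraries known. Values are read counts relative to library size (CPM), which the authors normalized with TMM factors, and between 17089836 and 19944952 reads per library stood behind them. For a gene without reads, up to 3 reads cannot be told from 0, which corresponded to 0.151 to 0.181 CPM, a limit that covers counting error only. Cav1 ranged from 949.8 to 1157 CPM in the WT libraries and did not exceed 0.411 CPM in the Cav1KO libraries. Of 10 fibroblast markers, 8 were listed, and their summed level was 7905 to 7939 CPM in WT stiff, 10300 to 10464 in WT soft, against 3874 to 4635 in Cav1KO stiff and 10436 to 10603 in Cav1KO soft. The summed level was thus high in every library and lowest in Cav1KO stiff, an order that not every single marker shared. The part of these markers in the results below was not tested.

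Complement is a cascade of plasma and tissue proteins in which C1r and C1s cleave C4, factor B (Cfb) forms the alternative pathway convertase, and all routes meet at the cleavage of C3. Acute phase proteins such as haptoglobin (Hp), serum amyloid A and angiotensinogen (Agt) are made mainly by the liver during inflammation, and several are also produced by stromal cells. Interleukin-6-type cytokines acting through STAT3, interleukin-1 acting through NF-kB, and C/EBP factors are well known inducers of these genes.

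Upstream sequences of members are shown as a description, with matches to C/EBP and STAT motifs marked. Whether these motifs have a part in the differences between the groups was not tested. RefSeq promoters on GRCm38.p6, which run from 250 bases before the start to 50 bases from it on, were matched for 5 of the 9 members (C3, Lcn2, Saa3, Agt and Serpina3n). The 250 bases before the start of the 4 promoters with a match are printed 5′ to 3′ on the strand of the gene, which is the minus strand for each. They lie at chr17:57228137-57228386, chr2:32387740-32387989, chr7:46715677-46715926 and chr8:124569707-124569956 in that order. The start is that of RefSeq, whereas the gene coordinates given below are from GENCODE. By the latter, the Lcn2 stretch lies inside the gene and the Saa3 stretch overlaps its gene. Capitals mark the C/EBP letters TTGCNNAA in C3, Lcn2 and Saa3, read on the opposite strand in Saa3, and the STAT letters TTCNNNGAA in Agt.
C3: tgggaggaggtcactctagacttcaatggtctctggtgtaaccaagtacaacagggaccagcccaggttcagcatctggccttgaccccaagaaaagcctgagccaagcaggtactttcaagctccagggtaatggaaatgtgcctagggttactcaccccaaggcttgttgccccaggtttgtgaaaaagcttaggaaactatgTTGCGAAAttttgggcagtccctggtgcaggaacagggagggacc
Lcn2: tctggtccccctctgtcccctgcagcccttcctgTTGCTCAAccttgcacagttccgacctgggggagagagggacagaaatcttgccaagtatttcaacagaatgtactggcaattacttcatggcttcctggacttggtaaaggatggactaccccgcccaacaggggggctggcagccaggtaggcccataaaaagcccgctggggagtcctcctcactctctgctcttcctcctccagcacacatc
Saa3: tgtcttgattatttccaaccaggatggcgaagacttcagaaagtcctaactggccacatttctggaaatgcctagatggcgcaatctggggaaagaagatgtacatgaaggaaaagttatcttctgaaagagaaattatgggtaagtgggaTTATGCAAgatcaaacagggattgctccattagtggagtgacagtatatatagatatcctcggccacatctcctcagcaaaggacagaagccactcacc
Agt: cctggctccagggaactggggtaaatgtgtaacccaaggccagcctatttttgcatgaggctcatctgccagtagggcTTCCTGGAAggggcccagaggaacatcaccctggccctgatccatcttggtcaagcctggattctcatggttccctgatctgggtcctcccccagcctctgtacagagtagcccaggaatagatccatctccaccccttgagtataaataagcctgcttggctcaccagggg

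The C/EBP match ran from base -45 to base -38 in C3, counted from the start, from -216 to -209 in Lcn2, and from -99 to -92 in Saa3. The STAT match in Agt ran from -172 to -164. Neither motif was found in the Serpina3n promoter. The AP-1 letters TGANTCA, the TEAD letters GGAATG and the NF-kB consensus gave no match in any of the 5 promoters, which says only that these letters are not in these windows. Both strands were searched, and no matches overlapped. Among 32851 mouse promoters of the same length, 10.8% held the C/EBP letters, 8.30% the STAT letters, 8.46% the NF-kB consensus, 7.81% the AP-1 letters and 14.7% the TEAD letters. Such matches are descriptions of the sequence and are not binding sites.

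**Figure D1:**
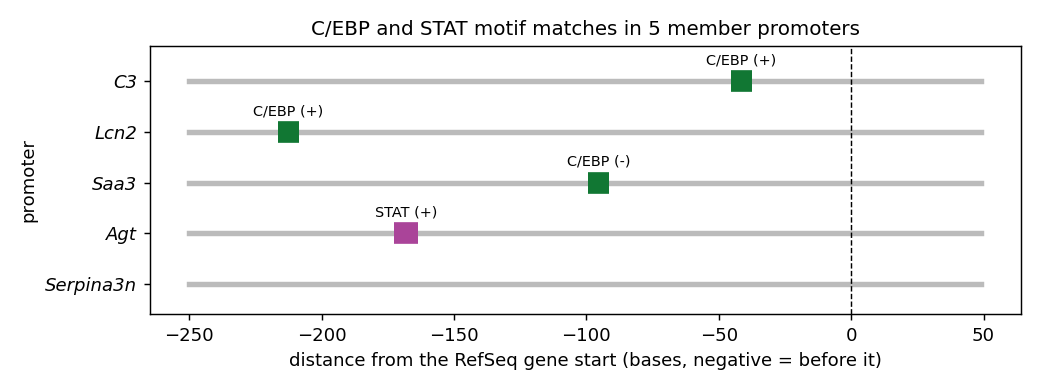
Motif matches along the promoters of the 5 members with a RefSeq promoter. The horizontal axis is the distance in bases from the RefSeq start of the gene, and each line is 1 promoter. The marks are C/EBP matches in C3, Lcn2 and Saa3 and a STAT match in Agt, with none in Serpina3n.

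Differences were tested with limma on log2(CPM + 1) in 1 fit of the 8 libraries, with Benjamini-Hochberg adjustment over 12494 genes and a threshold of 0.05. Log2 differences below are on that scale, which understates the change of low genes, and fold values are ratios of mean CPM. Substrate comparisons within a genotype share their libraries with the genotype comparisons, so these kinds of comparison are not independent. Of the 6 members other than Agt and Serpina3n, 5 had at least 1 CPM in every library (C3, C4b, Lcn2, Saa3 and Hp). Cfb entered the test only through the Cav1KO soft group and is left out of the counts. Of these 5, 4 rose on the soft substrate in WT cells and 0 fell, against 26.3% of all genes that rose and 22.1% that fell. In Cav1KO cells all 5 rose, against 28.2% of all genes that rose and 27.9% that fell. The median log2 difference of the 5 was 1.53 in WT cells and 1.69 in Cav1KO cells, beside 0.02 in each for all genes tested. Of the 8 listed fibroblast markers, 7 rose on soft in WT cells and 8 in Cav1KO cells, with 0 falling in either. The median log2 difference of these markers was 0.96 in WT cells and 1.52 in Cav1KO cells. In bulk RNA, fewer cells of a type and less RNA per cell cannot be told apart.

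The genotypes also differed in these genes. On the stiff substrate 4 of the 5 members were higher in Cav1KO than in WT cells and 0 were lower, against 25.0% of all genes higher and 26.6% lower. On the soft substrate all 5 were higher in Cav1KO cells, against 24.1% of all genes higher and 29.9% lower. Their median log2 difference between genotypes was 2.43 on stiff and 2.90 on soft, beside -0.03 on each for all genes. The response to the substrate itself was larger in Cav1KO than in WT cells for 2 of the 5 members and smaller for 0, against 4.47% of all genes with a more positive and 6.0% with a more negative response in Cav1KO cells. The median difference of the responses was 0.47 for the 5 members and -0.07 for all genes.

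**Figure D2:**
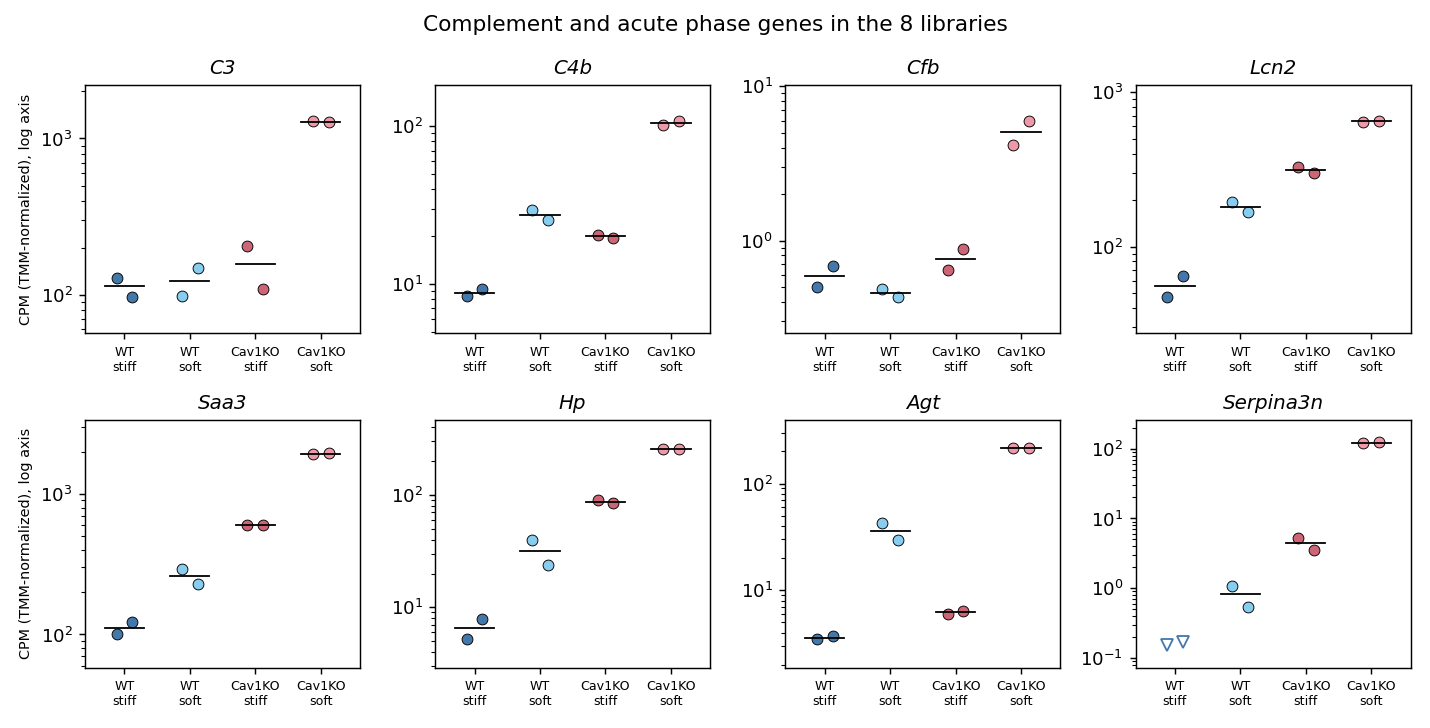
Level of each member in each library. The vertical axis is CPM on a log scale, points are libraries, short bars are group means, and open triangles mark libraries with 0 reads at the limit that 3 reads allow. The Cav1KO soft libraries are the highest for each of the 8 members. This is not a result for Agt and Serpina3n, which chose the set, or for Cfb, which passed the filter through Cav1KO soft alone. The Serpina3n triangles are both WT stiff libraries.

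C3 is the component on which all complement pathways converge and the source of the opsonin C3b. It lies at chr17:57203970-57228136 on the minus strand (GRCm38, ENSMUSG00000024164). C3 was at 129 and 97.2 CPM in WT stiff, 98.4 and 148 in WT soft, against 205 and 108 in Cav1KO stiff, and 1289 and 1275 in Cav1KO soft. Apart from this last group the groups overlapped, and the Cav1KO soft libraries stood far above them. In Cav1KO cells C3 rose 8.17-fold on soft (log2 difference 3.09, SE 0.29, adjusted p = 5.80e-05 by limma). In WT cells the log2 difference was 0.11 (SE 0.29, limma adjusted p = 0.779), and the difference between the 2 responses, 2.98 (SE 0.41), passed the test (limma adjusted p = 0.00752). On soft, C3 was 10.4-fold higher in Cav1KO than in WT cells (limma adjusted p = 2.32e-05). On stiff, the log2 difference between genotypes was 0.41 (SE 0.29, limma adjusted p = 0.263), and it depended on single libraries. It was 0.87 with an adjusted p of 0.0152 by limma when the second Cav1KO stiff library was left out, and -0.05 when the first was.

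Cfb, the factor B protease of the alternative pathway, lies at chr17:34856374-34862518 on the minus strand (ENSMUSG00000090231). It was highest in the same group as C3, at low counts. There were 10 and 12 reads in WT stiff, 8 and 8 in WT soft, against 11 and 16 in Cav1KO stiff, and 80 and 116 in Cav1KO soft. These correspond to 0.502 and 0.684, 0.483 and 0.430, 0.647 and 0.877, and 4.18 and 5.97 CPM. The Cav1KO soft libraries lay above all others, and the WT stiff and Cav1KO stiff libraries overlapped. The mean of Cfb was 6.66-fold higher on soft in Cav1KO cells (log2 difference 1.77, SE 0.18), and in WT cells the log2 difference was -0.13 (SE 0.18). Because Cfb passed the filter on low values only through the group where it is high, that group had to differ, and these values are given without a test. Of the 60-base windows of Cfb transcripts, 71.7% also occur in the overlapping gene model Gm20547, so reads of both cannot be separated with certainty.

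C4b encodes complement component C4, whose cleavage products build the classical and lectin pathway C3 convertase. It lies at chr17:34728380-34743882 on the minus strand, and 112491 bases separate it from Cfb, which lies at higher coordinates. The libraries held 8.34 and 9.23 CPM in WT stiff, 29.2 and 25.3 in WT soft, against 20.5 and 19.6 in Cav1KO stiff, and 102 and 107 in Cav1KO soft. No groups overlapped, and C4b passed the test in both genotypes. C4b rose 3.10-fold on soft in WT cells (log2 difference 1.53, SE 0.11, limma adjusted p = 4.36e-05) and 5.20-fold in Cav1KO cells (2.32, SE 0.11, limma adjusted p = 7.55e-06). The responses differed by 0.80 (SE 0.15, limma adjusted p = 0.0221), a call that was lost when the first WT stiff, the second WT soft, the second Cav1KO stiff or either Cav1KO soft library was left out, with limma adjusted p-values from 0.053 to 0.109 and log2 differences from 0.69 to 0.86. C4b was also higher in Cav1KO cells by 2.29-fold on stiff (limma adjusted p = 4.92e-05) and 3.83-fold on soft (limma adjusted p = 1.92e-06). A share of 29.0% of its 60-base windows occurs in the near-identical C4a, which was not analysed here, so the assignment of reads between the 2 copies is uncertain.

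Lcn2, Saa3 and Hp had a different order of levels from C4b, with Cav1KO stiff above WT soft. Lcn2 encodes lipocalin-2, which binds bacterial siderophores, and lies at chr2:32384633-32388252. Lcn2 was at 47.1 and 64.6 CPM in WT stiff, 195 and 167 in WT soft, against 329.7 and 299 in Cav1KO stiff, and 641 and 651 in Cav1KO soft. No groups overlapped. Lcn2 rose 3.24-fold on soft in WT cells (log2 difference 1.69, SE 0.14, limma adjusted p = 7.14e-05) and 2.06-fold in Cav1KO cells (1.04, SE 0.14, limma adjusted p = 0.000366). The difference of the responses, -0.65 (SE 0.20), did not pass the test (limma adjusted p = 0.0651), although it did with DESeq2 (adjusted p = 0.0109) and without the second WT stiff library (limma adjusted p = 0.0270).

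Saa3, at chr7:46711998-46715700, encodes a serum amyloid A protein made largely outside the liver. Its libraries held 101 and 122 CPM in WT stiff, 293 and 229 in WT soft, against 598 and 604 in Cav1KO stiff, and 1931 and 1939.6 in Cav1KO soft. All groups were again separate, and the Cav1KO stiff level exceeded that of WT soft. The rise on soft was 2.34-fold in WT cells (log2 difference 1.22, SE 0.12, limma adjusted p = 0.000157) and 3.22-fold in Cav1KO cells (1.69, SE 0.12, limma adjusted p = 2.33e-05). The responses differed by 0.47 (SE 0.18), which did not pass the test (limma adjusted p = 0.102) but did with quantile normalisation (adjusted p = 0.0418 by limma).

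Hp, at chr8:109575128-109579172, encodes haptoglobin, which binds free haemoglobin. It was at 5.27 and 7.81 CPM in WT stiff, 40.0 and 23.8 in WT soft, against 90.5 and 84.4 in Cav1KO stiff, and 257 and 255 in Cav1KO soft. No groups overlapped, although the WT soft libraries lay apart from each other. Hp rose 4.87-fold on soft in WT cells (log2 difference 2.10, SE 0.23, limma adjusted p = 0.000189) and 2.93-fold in Cav1KO cells (1.54, SE 0.23, limma adjusted p = 0.000585). The responses differed by -0.56 (SE 0.32, limma adjusted p = 0.241). For these 3 genes the genotype difference on stiff was large: 5.63-fold for Lcn2 (limma adjusted p = 2.25e-06), 5.39-fold for Saa3 (limma adjusted p = 1.31e-06) and 13.4-fold for Hp (limma adjusted p = 4.39e-06). On soft it was 3.58-fold, 7.41-fold and 8.03-fold in the same order, each past the threshold.

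Agt encodes angiotensinogen, the serpin from which renin releases angiotensin I, and lies at chr8:124556534-124569706 on the minus strand. It was at 3.47 and 3.71 CPM in WT stiff, 42.5 and 29.3 in WT soft, against 6.0 and 6.41 in Cav1KO stiff, and 215 and 214 in Cav1KO soft. No groups overlapped, and both soft groups lay above both stiff groups. The mean was 10.02-fold higher on soft in WT cells (log2 difference 2.99, SE 0.16) and 34.6-fold higher in Cav1KO cells (4.90, SE 0.16). The latter was the largest of the 12494 log2 differences in Cav1KO cells, and the former ranked 22 in WT cells. The genotypes differed by 1.73-fold on stiff and by 5.98-fold on soft.

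Serpina3n encodes a secreted serine protease inhibitor related to human antichymotrypsin and lies at chr12:104406729-104414329 on the plus strand. It had 0 reads in both WT stiff libraries, 18 and 10 reads in WT soft, against 88 and 65 in Cav1KO stiff, and 2282 and 2427 in Cav1KO soft. In CPM these were 1.09 and 0.537 in WT soft, against 5.18 and 3.56 in Cav1KO stiff, and 119 and 125 in Cav1KO soft. The Cav1KO stiff libraries thus lay above those of WT soft, the reverse of the order for Agt. Serpina3n was 27.9-fold higher on soft in Cav1KO cells (log2 difference 4.53, SE 0.20) and 150.2-fold higher in Cav1KO than in WT cells on soft. Against a limit of 3 reads per WT stiff library, its mean was 5.05-fold higher in WT soft and 27.2-fold higher in Cav1KO stiff. These ratios leave out the counting error of the WT soft and Cav1KO stiff reads, so they are not strict lower bounds. Of its 60-base windows, 3.34% occur in another gene, against 0% for C3, Lcn2, Hp and Agt and 2.77% for Saa3.

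**Figure D3:**
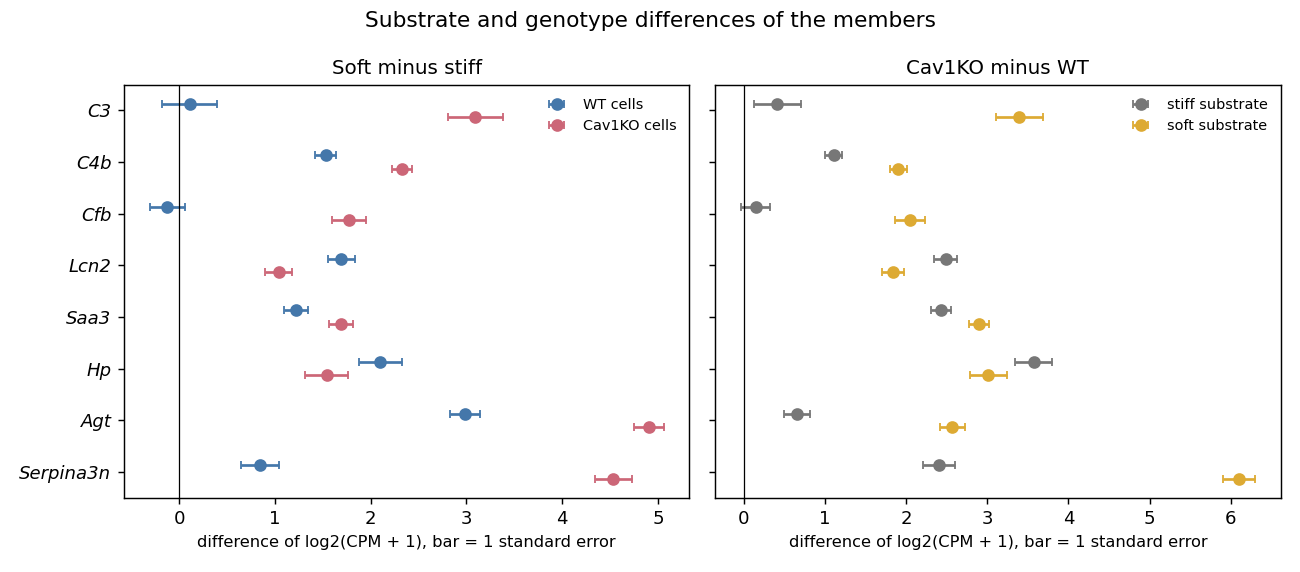
Log2 differences of the 8 listed members. The left panel gives soft minus stiff in WT cells (blue) and in Cav1KO cells (red), the right panel Cav1KO minus WT on stiff (grey) and on soft (yellow), and bars are 1 standard error. C3 and Cfb lie near 0 in WT cells and on the stiff substrate, and the Serpina3n values against WT stiff depend on the pseudocount because that group had 0 reads.

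The members thus followed 3 orders of level. C3 and Cfb were high in Cav1KO soft, and C3 did not pass the test between substrates in WT cells or between genotypes on stiff. C4b and Agt were higher in WT soft than in Cav1KO stiff. Lcn2, Saa3, Hp and Serpina3n were higher in Cav1KO stiff than in WT soft. This last comparison changes genotype and substrate together and was not tested. Agt and Serpina3n chose the set, and Cfb passed the filter through Cav1KO soft alone. The high level of these genes in that group is therefore not a result. Over the 8 libraries, the genes whose log2(CPM + 1) was most like that of Agt among 10063 genes with a mean of at least 5 CPM were H2-D1, a class I histocompatibility gene (Pearson r = 0.996), Sp140 (0.993), Aox3 (0.993), Siae (0.992) and Mtss1 (0.991). Genes among the most like Serpina3n were Mmp9, a matrix metalloprotease (0.999), Atp6v0a1 (0.994), Fam20c (0.991) and Cyp2f2 (0.988). Agt and Serpina3n had an r of 0.820 with each other. Among the members, C4b was closest to Agt (0.961, rank 147) and Saa3 to Serpina3n (0.959, rank 101). The points share the 4 groups, so these values describe the pattern of the group means.

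Other genes of complement activation moved with C4b. Of 25 in the list, 6 were listed and tested. On soft, 5 of them rose in WT cells and 6 in Cav1KO cells, with 0 falling in either. Of all genes, 26.3% rose and 22.1% fell in WT cells, and 28.2% rose and 27.9% fell in Cav1KO cells. Among the 6, C1s2 passed the filter on low values through the Cav1KO soft group alone. That group had to be the highest for C1s2, so its rise in Cav1KO cells is not a result. With C1s2 included, the median log2 difference was 0.79 in WT cells and 1.35 in Cav1KO cells. C1s1, the protease that cleaves C4, had means of 19.5 CPM in WT stiff, 95.5 in WT soft, against 96.2 in Cav1KO stiff and 664 in Cav1KO soft. It rose on soft by 2.24 on the log2 scale in WT cells (SE 0.13, limma adjusted p = 3.25e-05) and by 2.78 in Cav1KO cells (SE 0.13, limma adjusted p = 8.14e-06). C1ra, which activates C1s, went from 30.8 to 86.1 CPM in WT cells (log2 difference 1.45, SE 0.12, limma adjusted p = 6.75e-05) and from 46.4 to 235 in Cav1KO cells (2.32, SE 0.12, limma adjusted p = 9.12e-06). Colec12, a scavenger receptor of the collectin family, rose by 0.61 in WT cells and by 1.25 in Cav1KO cells on the same scale, the first of which was 0.45 (limma adjusted p = 0.0579) without the second WT stiff library.

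The regulators and receptors of complement had calls in both directions. Of 22, 9 were tested. On soft, 3 rose and 3 fell in WT cells, against 26.3% of all genes that rose and 22.1% that fell. In Cav1KO cells 4 rose and 3 fell, against 28.2% of all genes that rose and 27.9% that fell. Whether the 9 genes differ from these shares was not tested. Their median log2 difference was 0.07 in WT and -0.13 in Cav1KO cells. Clu, encoding the chaperone and terminal pathway inhibitor clusterin, was at 1.41 CPM in WT stiff and 1.79 in WT soft. It rose from 15.7 CPM in Cav1KO stiff to 46.0 in Cav1KO soft (log2 difference 1.5, SE 0.14, limma adjusted p = 6.62e-05). C1qbp, a mitochondrial protein also known to bind C1q, fell from 349 to 196 CPM in WT cells and by 0.83 on the log2 scale (limma adjusted p = 0.000114). In Cav1KO cells it fell from 355 to 182 CPM and by 0.96 (limma adjusted p = 3.40e-05).

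Of 34 further acute phase genes, 11 were tested, and 6 rose and 1 fell on soft in each genotype. Of all genes, 26.3% rose and 22.1% fell in WT cells, and 28.2% rose and 27.9% fell in Cav1KO cells. The median log2 difference was 0.43 in WT and 0.76 in Cav1KO cells. These counts and medians include 3 of the 11 that passed the filter through 1 group alone, which had to be their highest group. Lbp, the lipopolysaccharide-binding protein, had means of 0.854 CPM in WT stiff, 14.0 in WT soft, against 58.2 in Cav1KO stiff and 358 in Cav1KO soft, in the order of Hp and Saa3. It rose on soft by 2.94 (SE 0.24, limma adjusted p = 6.87e-05) in WT cells and by 2.60 (SE 0.24, limma adjusted p = 5.77e-05) in Cav1KO cells on the log2 scale. Cp, encoding the copper carrier ceruloplasmin, rose by 1.12 in WT and 1.45 in Cav1KO cells. Il1rn, the interleukin-1 receptor antagonist, rose by 1.84 in WT and 0.76 in Cav1KO cells. Ptx3, a long pentraxin that binds C1q, moved the other way. It fell by 1.58 on the log2 scale in Cav1KO cells, from 403 to 134 CPM (SE 0.09, limma adjusted p = 1.13e-05). In WT cells it fell by 0.35 (limma adjusted p = 0.0106), a call lost under 3 of 21 alternatives.

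The close relatives of Saa3 had few reads, most of them in Cav1KO cells. Saa1 had 1 to 3 reads in the WT libraries, 9 and 17 in Cav1KO stiff, and 49 and 98 in Cav1KO soft. Saa2 had 0 reads in WT stiff, 8 and 4 in WT soft, against 14 and 23 in Cav1KO stiff, and 73 and 80 in Cav1KO soft. These genes share 25.9% and 24.9% of their 60-base windows, mostly with each other, so the split between them is uncertain. In the Serpina3 cluster, Serpina3g followed the order of Serpina3n, with means of 2.02, 7.58, 98.1 and 207 CPM in WT cells on stiff and on soft and in Cav1KO cells on stiff and on soft. Serpina3f had means of 0.426, 2.23, 11.2 and 26.8 CPM in the same order. Serpina3h, Serpina3i and Serpina3m were at 6.33 CPM or less in every library. Paralogs of this cluster share between 6.77% and 16.6% of their windows with other genes.

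**Figure D4:**
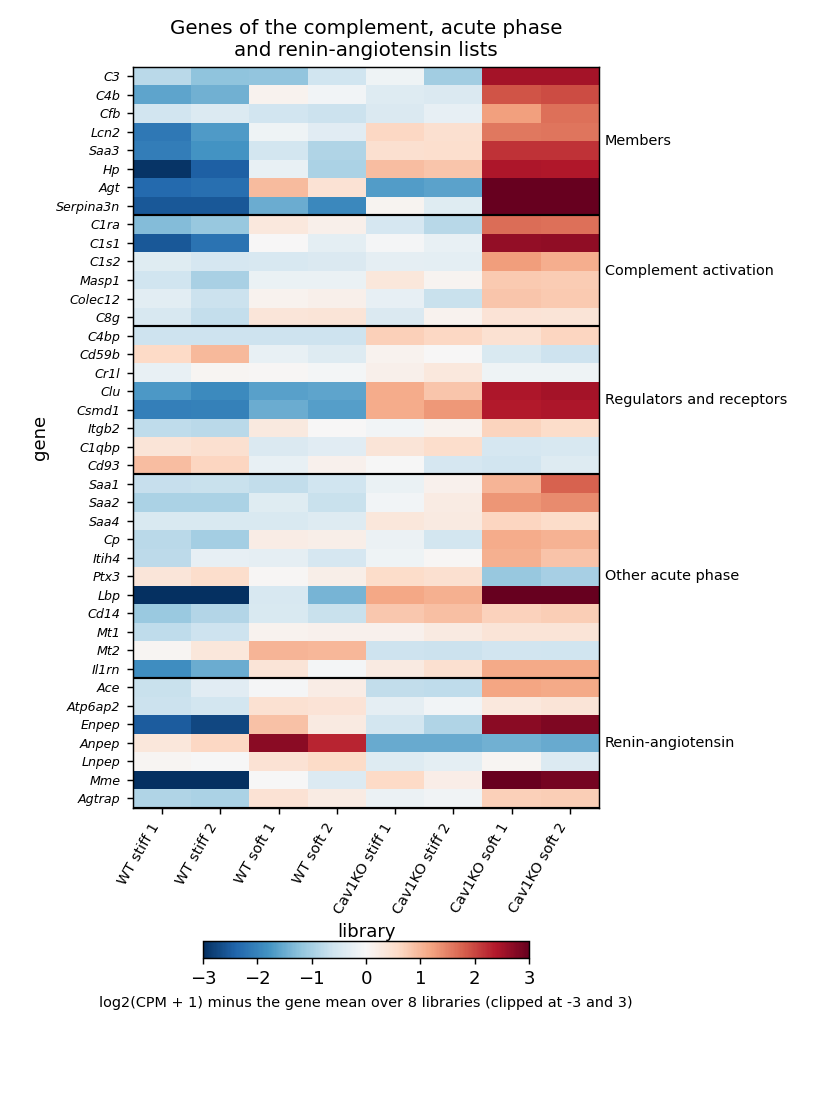
Genes from the complement, acute phase and renin-angiotensin lists in each library. Rows are genes and columns are libraries, and colour is log2(CPM + 1) minus the gene mean over the 8 libraries, clipped at -3 and 3. The members and genes such as C1s1, Clu, Lbp and Mme are highest in the Cav1KO soft libraries, whereas Ptx3 is lowest there. The high values of Agt, Serpina3n and Cfb in those libraries are not a result.

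More of the known inducers of the acute phase response rose than fell on soft, although they did not share 1 direction. Of 35 cytokines, receptors and transcription factors, 31 were tested. On soft, 14 rose and 1 fell in WT cells, against 26.3% of all genes that rose and 22.1% that fell. In Cav1KO cells 14 rose and 4 fell, against 28.2% of all genes that rose and 27.9% that fell. The medians were 0.26 and 0.27 on the log2 scale. Il6, the main inducing cytokine, was at 5.17 and 5.81 CPM in WT stiff, 15.4 and 13.9 in WT soft, against 9.83 and 9.15 in Cav1KO stiff, and 3.71 and 2.73 in Cav1KO soft. It rose on soft by 1.27 in WT cells (SE 0.15, limma adjusted p = 0.000301) and fell by 1.32 in Cav1KO cells (SE 0.15, limma adjusted p = 0.000163). The responses differed by -2.59 on the log2 scale (limma adjusted p = 0.00161). Il6 RNA was lowest in the group where the members were highest, and its part in their levels was not tested.

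Among the receptors, Lifr rose in both genotypes. Lifr, the receptor for leukaemia inhibitory factor and a subunit for related cytokines, had means of 6.32, 15.0, 86.6 and 270 CPM in WT cells on stiff and on soft and in Cav1KO cells on stiff and on soft. On soft it rose by 1.13 among WT cells (limma adjusted p = 8.12e-05) and by 1.63 in Cav1KO cells (limma adjusted p = 1.33e-05) on the log2 scale. Lif, the gene of leukaemia inhibitory factor, was named after its values were seen. Its means were 39.5, 31.6, 7.72 and 4.35 CPM in the same order of groups. Named after their values were seen, because of the motifs above, Stat3 and the 3 C/EBP genes of the list are given as well. Stat3 rose by 0.86 in Cav1KO cells (limma adjusted p = 0.000200) and had a log2 difference of 0.26 in WT cells (limma adjusted p = 0.0679). In WT cells Cebpd rose by 0.73 (limma adjusted p = 0.00170), whereas in Cav1KO cells it fell by 0.51 (limma adjusted p = 0.00744). Cebpb rose by 0.39 in WT cells, from 608 to 797 CPM (limma adjusted p = 0.00546), and had a log2 difference of 0.06 in Cav1KO cells (limma adjusted p = 0.559). Cebpa had log2 differences of 0.13 and 0.24 on soft (limma adjusted p = 0.594 and 0.286) and was lower in Cav1KO than in WT cells. On stiff it was at 5.36 CPM in WT and 1.14 in Cav1KO cells (limma adjusted p = 0.000140), and on soft at 5.93 and 1.53 CPM (limma adjusted p = 0.000197).

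Agt is the substrate of the renin-angiotensin system. Of 15 other genes of the system, 7 were tested, and all 7 rose on soft in WT cells and 5 in Cav1KO cells, with 0 falling, against 26.3% and 28.2% of all genes that rose. The medians were 1.26 and 0.86 on the log2 scale, and the median difference of the responses was -0.40, beside 1.92 for Agt. The aminopeptidase genes Anpep and Lnpep, named after their values were seen, had log2 differences of 0.03 and 0.16 in Cav1KO cells (limma adjusted p = 0.913 and 0.347). Enpep, the aminopeptidase that trims angiotensin II, had means of 0.526 CPM in WT stiff, 13.2 in WT soft, against 4.65 in Cav1KO stiff and 61.5 in Cav1KO soft. Like Agt, it was higher in WT soft than in Cav1KO stiff, and it rose on soft by 3.19 in WT cells (SE 0.22, limma adjusted p = 4.10e-05) and by 3.48 in Cav1KO cells (SE 0.22, limma adjusted p = 1.43e-05). Mme, encoding neprilysin, which also cleaves angiotensins, rose by 2.91 and by 2.51 (SE 0.16 each). Agtrap, a partner of the angiotensin II receptor, rose by 1.26 and by 0.86.

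Among 28 further serpins, 16 were tested, and 9 rose on soft in each genotype, whereas 2 fell in WT and 3 in Cav1KO cells. Of all genes, 26.3% rose and 22.1% fell in WT cells, and 28.2% rose and 27.9% fell in Cav1KO cells. The medians of the serpins were 0.60 and 0.68 on the log2 scale. These counts and medians include 1 of the 16 that passed the filter through 1 group alone, which had to be its highest group. Serpinb8, an intracellular serpin, rose by 2.02 in WT and by 1.88 in Cav1KO cells. Of 16 receptors, ligands and partners of the members, 7 were tested. On soft, 5 rose and 0 fell in WT cells, and 6 rose and 1 fell in Cav1KO cells, beside the same shares of all genes. The medians of these partners were 1.08 and 1.0. Tlr2 and Tlr4, pattern recognition receptors to which serum amyloid A binds, rose by 2.54 and 1.42 in WT cells. In Cav1KO cells they rose by 0.84 and 0.50. Mmp9, whose product forms a complex with lipocalin-2, rose by 2.27 in Cav1KO cells, and Lrp1, an endocytic receptor for serpin complexes, by 1.71. In WT cells Mmp9 rose by 0.53 (limma adjusted p = 0.0247), a call lost under 6 of 21 alternatives. The log2 difference of Lrp1 in WT cells was 0.10 (limma adjusted p = 0.656).

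Markers of other cell types that make these proteins were largely not listed. Of 10 hepatocyte markers 1 was listed, Apoa2, at 1.41 CPM or less in every library. Of 10 macrophage markers 1 was listed, Cd68, which was at 0.552 to 0.684 CPM in WT stiff, 1.45 to 1.56 in WT soft, against 1.04 to 1.12 in Cav1KO stiff and 3.65 to 4.55 in Cav1KO soft. None of the 8 epithelial and 6 endothelial markers was listed. Of 8 adipocyte markers 3 were listed, with a summed level of 7.24 to 8.69 CPM in WT stiff, 10.3 in both WT soft libraries, 109.5 to 113.8 in Cav1KO stiff and 162 to 167 in Cav1KO soft. That sum followed the order of Lcn2, Saa3 and Hp and came mainly, in Cav1KO cells, from Fabp4, at 0.357, 1.99, 104 and 156 CPM on average, whereas Pparg, the adipocyte transcription factor, was at 7.21, 6.83, 0.200 and 0.467 CPM. Its part in the results was not tested.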

How the data were processed

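Poly(A) RNA from 8 libraries of mouse embryonic fibroblasts was analysed, 2 in each of 4 groups taken from the labels. The submitters' processing notes name CASAVA 1.8.2, cutadapt, RSEM 1.2.3 and the build GRCm38, and the filter the authors applied to low genes is not given in the sources used here. The deposited signal is a table of TMM-normalized CPM made by the authors. Every value was a whole multiple of 1 read within 0.01 read (100%), so the reads were recovered, and all columns belonged to the 8 samples. The library kit did not mark strand, so overlapping antisense reads cannot be separated.

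The 12494 genes that reached 1 CPM in 2 or more libraries were fitted with limma 3.58.1 in R 4.3.3, with a mean-variance trend, on log2(CPM + 1) with 4 group means. P-values were two-sided and adjusted by the Benjamini-Hochberg method. The code was tested on simulated data. Alternatives were pseudocounts of 0.25 and 5, other filters and scalings, no trend, a replicate block, the contrast's groups alone, each library left out, and edgeR 4.0.16 and DESeq2 1.42.0 on recovered reads. A fit of 2 groups with a direct or crossed replicate block was added after the data were seen. Coordinates and windows of 60 bases came from GENCODE M21 (GRCm38), which matched 12451 of 12528 genes, and promoters from RefSeq.

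The members and the gene lists were chosen with earlier results of these data known. Genes named from each list were among the 3 with the largest change past the threshold in each genotype, with a mean of at least 5 CPM and libraries that do not overlap. The paralogs of members and genes from the 5 most like Agt and Serpina3n were also named. Some genes that meet these rules are not reported here. The lists covered complement activation, its regulators and receptors, other acute phase genes, their inducers, the renin-angiotensin system, serpins, partners of the members, and markers of 6 cell types.

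Same-numbered libraries deviated together in some pairs of groups and oppositely in others. The correlation was 0.42 between WT stiff and Cav1KO stiff, and -0.37 between WT stiff and WT soft. The labels tie the numbers to no batch, and the numbers were not treated as pairs in the main fit.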

Additional observations from a re-analysis of the deposited data

Results flagged for a closer look

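The response to the soft substrate differed between the genotypes for 2 of the 5 members tested, by the test of the difference itself. It was larger in Cav1KO cells by 2.98 for C3 and by 0.80 for C4b on the log2 scale. The C3 value rests on Cav1KO soft libraries of 1289 and 1275 CPM, and in WT cells C3 did not pass the test. The C4b difference is the less secure, since leaving out 1 library ended its call for 5 of the 8 libraries.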

How the results depend on the processing

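Members had 786 values under an alternative. For Agt and Serpina3n a value counted as kept when it moved by less than 1 standard error of the difference. For the other members it counted as kept when its side of the threshold held, so sign changes without a call are not counted. C3 in WT cells, for example, had a log2 difference of 0.11, and of -0.18 without the second WT soft library. By these rules 732 values were kept, 5 lost a call, 5 gained one, 42 untested values moved further, and 2 turned. Both of the latter were the Serpina3n difference of responses, which was 3.69 on the log2 scale and became -2.07 with edgeR and -1.53 with DESeq2, with 0 reads in WT stiff. The numbers of the 5 members that rose on soft were 4 in WT cells and 5 in Cav1KO cells with any library left out. The difference of responses was called for 1 to 3 of the 5, the genotype difference for 4 to 5 on stiff and for 5 on soft. Of 3750 values for other genes named, 120 lost a call and 63 gained one. These included Cebpd in Cav1KO cells (limma adjusted p = 0.0592 without the first Cav1KO soft library) and Stat3 in WT cells (limma adjusted p as low as 0.0280, without the first WT stiff library).

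With a replicate block over the 8 libraries, the counts of members called were 4 and 5 on soft in WT and Cav1KO cells, 2 for the difference, and 4 and 5 between genotypes on stiff and soft, as without the block. A block within 2 groups moved the count between genotypes on stiff to 5, by C3 (limma adjusted p = 0.00721). Over all genes, the block over the 8 libraries gave 5980 calls between substrates in WT cells, against 6046 without it. Fits of the WT groups alone gave 5388 calls without a block, 3997 with the block and 6872 with the crossed block. Between genotypes on stiff, fits of the stiff groups alone gave 5291 calls without a block and 8062 with the block. With 2 libraries a group, the counts over all genes that stand as background depended on single libraries. The substrate comparison in WT cells gave 3913 calls without the first WT soft library. The difference of responses gave 1309 calls, 705 without the mean-variance trend, and from 110 without the first Cav1KO soft library to 3436 without the first Cav1KO stiff library. It moved by over 1.5 times without each library other than the second WT stiff one.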
